A study of Homo sapiens with 16 samples.

Results

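The 10 genes OPA1, MFN1, MFN2, DNM1L, OMA1, YME1L1, CLPB, IMMT, VDAC1 and VDAC2, which shape the mitochondrial membranes, were followed. They were picked by symbol, and all 10 of 10 were listed in both deposited count tables, among 12592 genes in the table of the KMS12PE line and 14560 in that of the KMS27 line. Poly-A RNA was measured in 16 libraries, 2 from each of 8 cell populations. KMS12PE and KMS27 are human myeloma cell lines that carry the translocation t(11;14) and that were sensitive to venetoclax, an inhibitor of BCL2. Clones A, C and D of KMS12PE and clones B5, C1 and C5 of KMS27 came from high-dose venetoclax, each grew from a single cell, and each was kept in 100 nM of the drug, while the dose given to the parental cells of either line was not stated. Drug exposure, selection and growth from 1 cell cannot be told apart in a difference between a clone and its parental cells.

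The inner membrane of a mitochondrion folds into cristae, narrow-necked pockets that hold most of the cytochrome c of the cell. When BCL2 is inhibited, BAX and BAK can permeabilize the outer membrane, and the width of the cristae necks governs how much cytochrome c leaves. OPA1 fuses inner membranes and holds the necks tight, MFN1 and MFN2 fuse outer membranes, and DNM1L, also called DRP1, constricts mitochondria until they divide. OMA1 and YME1L1 are the proteases that cut OPA1, a step on the protein that gene counts do not measure.

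Both promoters printed here belong to members that describe the cristae arm of the set, OPA1 as the only member searched that holds the NRF1 element and CLPB as the member with the most clone contrasts past the threshold. OPA1 lies on chromosome 3 (193593144 to 193697823, plus strand) and CLPB on chromosome 11 (72285495 to 72434680, minus strand) of GRCh38. The bases just upstream of the annotated starts, from RefSeq on GRCh38.p14, are given 5′ to 3′ on the strand of the gene, with the motif in capitals.
OPA1, chr3:193592958-193593143, plus strand: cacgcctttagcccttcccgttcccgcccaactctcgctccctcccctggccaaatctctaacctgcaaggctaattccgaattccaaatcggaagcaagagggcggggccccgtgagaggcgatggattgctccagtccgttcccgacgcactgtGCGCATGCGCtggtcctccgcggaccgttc
CLPB, chr11:72434681-72434781, minus strand: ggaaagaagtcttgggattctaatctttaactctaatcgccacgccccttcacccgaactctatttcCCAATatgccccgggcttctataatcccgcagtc
In OPA1 the capitals mark GCGCATGCG, the element of NRF1, a regulator of nuclear genes for mitochondria, found on both strands with the copies overlapping. It was found in 1.64% of 35116 promoter windows of 250 bases. The capitals in CLPB mark CCAAT, a common promoter box present in 32.0% of the same windows. Windows of 9 of the 10 members were searched on both strands for these motifs and for TCAAGGTCA, CACGTG, CCGGAAGT and GGGGCGGGG. CCGGAAGT was found in MFN1, and CCAAT also in MFN1, DNM1L, IMMT and VDAC1. The searched windows end at RefSeq starts, which can differ from the GENCODE starts. The CCAAT matches of DNM1L and IMMT lie inside the GENCODE gene, and the CCGGAAGT of MFN1 crosses its start. The VDAC1 window, chr5:134071012-134071261 on the minus strand, lies far upstream of its GENCODE gene, which starts at 134005133 on that strand. A match describes letters in a window, and no binding was measured.

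Total counts ran from 5831289 to 13674426 per library in KMS12PE and from 20257318 to 52615971 in KMS27, and the lowest count of any member was 139 in KMS12PE and 527 in KMS27. The labels do not say that the libraries of a population came from separate cultures, so the p-values measure only the spread between these libraries. The libraries of clone B5 stood further apart from each other than those of any other population, with a Pearson correlation of log2 CPM across genes of 0.975, against 0.978 to 0.990 in the other 7. All 10 of 10 plasma cell markers were listed in both lines. In KMS27 their summed level was 6135 and 6333 CPM in clone C5, 8079 to 10960 CPM in clones B5 and C1, and 10680 and 12370 CPM in parental cells. In KMS12PE it was 4136 and 4105 CPM in clone A, 3817 and 3553 CPM in clone C, 4542 and 4331 CPM in clone D, and 3985 and 4391 CPM in parental cells. At an edgeR adjusted p under 0.05, TNFRSF17 and CD38 were higher in clone D (log2 fold changes of 1.31 and 0.58). JCHAIN was lower in clones C (-0.71, edgeR adjusted p = 0.0455) and D (-1.07). With 1 library left out, CD38 in clone D lay at 0.47 to 0.73 and JCHAIN in clone C at -0.87 to -0.52. In KMS27 clone C5, CD38 was lower at -5.42, JCHAIN at -1.60, MZB1 at -1.27 and SDC1 at -0.91. CD38 was also lower in clone B5 (-0.49) and MZB1 in clones B5 (-0.80) and C1 (-1.17), while SDC1 was higher in clone C1 (0.44). Marker lists of other cell types were nearly empty: in KMS27 1 of 5 T cell genes, 1 of 5 myeloid genes, 0 of 3 erythroid genes and 1 of 5 stromal genes were listed, at no more than 2.97, 1.68, 0 and 9.18 CPM, all highest in clone C5 where above 0. In KMS12PE 2 of 5 T cell genes and 1 of 5 stromal genes were listed, at no more than 6.18 and 11.4 CPM, and none of the others. Of these, CD3G was called lower in clone D (-4.37, edgeR adjusted p = 0.0339), at -6.75 to -3.82 with 1 library left out. Fewer cells of a type and less RNA per cell cannot be told apart in bulk RNA.

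Levels per length put the outer membrane channel VDAC1 first and CLPB last in both lines. CPM scales the counts of a gene to the TMM-adjusted total of its library, and levels between genes were set side by side as CPM per kb of the principal GENCODE transcript. In parental KMS12PE cells VDAC1 stood at 239 ± 20.3 CPM per kb and YME1L1 at 163 ± 4.05 (SD, n = 2 each). VDAC2 at 87.6 ± 12.0 and DNM1L at 83.6 ± 7.79 CPM per kb did not differ beyond their spread, and clones A and C had them in the other order. IMMT followed at 63.5 ± 0.127, OPA1 at 47.2 ± 3.58 and MFN2 at 34.6 ± 3.25 CPM per kb. OMA1 at 13.8 ± 1.70, MFN1 at 10.7 ± 0.950 and CLPB at 6.13 ± 0.714 CPM per kb closed the order. Parental KMS27 cells had VDAC1 at 185 ± 8.48, VDAC2 at 115 ± 8.91, IMMT at 71.9 ± 3.89 and YME1L1 at 56.8 ± 4.22 CPM per kb. Further down came DNM1L at 38.9 ± 0.404, OPA1 at 24.4 ± 0.799, MFN2 at 20.6 ± 0.556 and OMA1 at 18.5 ± 0.152 CPM per kb. MFN1 at 15.1 ± 0.133 and CLPB at 5.18 ± 0.0755 CPM per kb were lowest, and in clone C5 MFN2 stood above OPA1. In parental cells and in the KMS12PE clones, the last place of CLPB rests on its long principal transcript of 10.2 kb. Per kb of coding sequence it was 29.4 ± 3.42 CPM in parental KMS12PE and 24.9 ± 0.362 CPM in parental KMS27, and OMA1 was last at 17.0 ± 2.09 and 22.7 ± 0.187 CPM. In the KMS27 clones CLPB was last on this scale too, at 14.3, 19.1 and 19.9 CPM in clones B5, C1 and C5. OMA1 stood there at 18.7, 22.7 and 22.9 CPM.

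**Figure D1:**
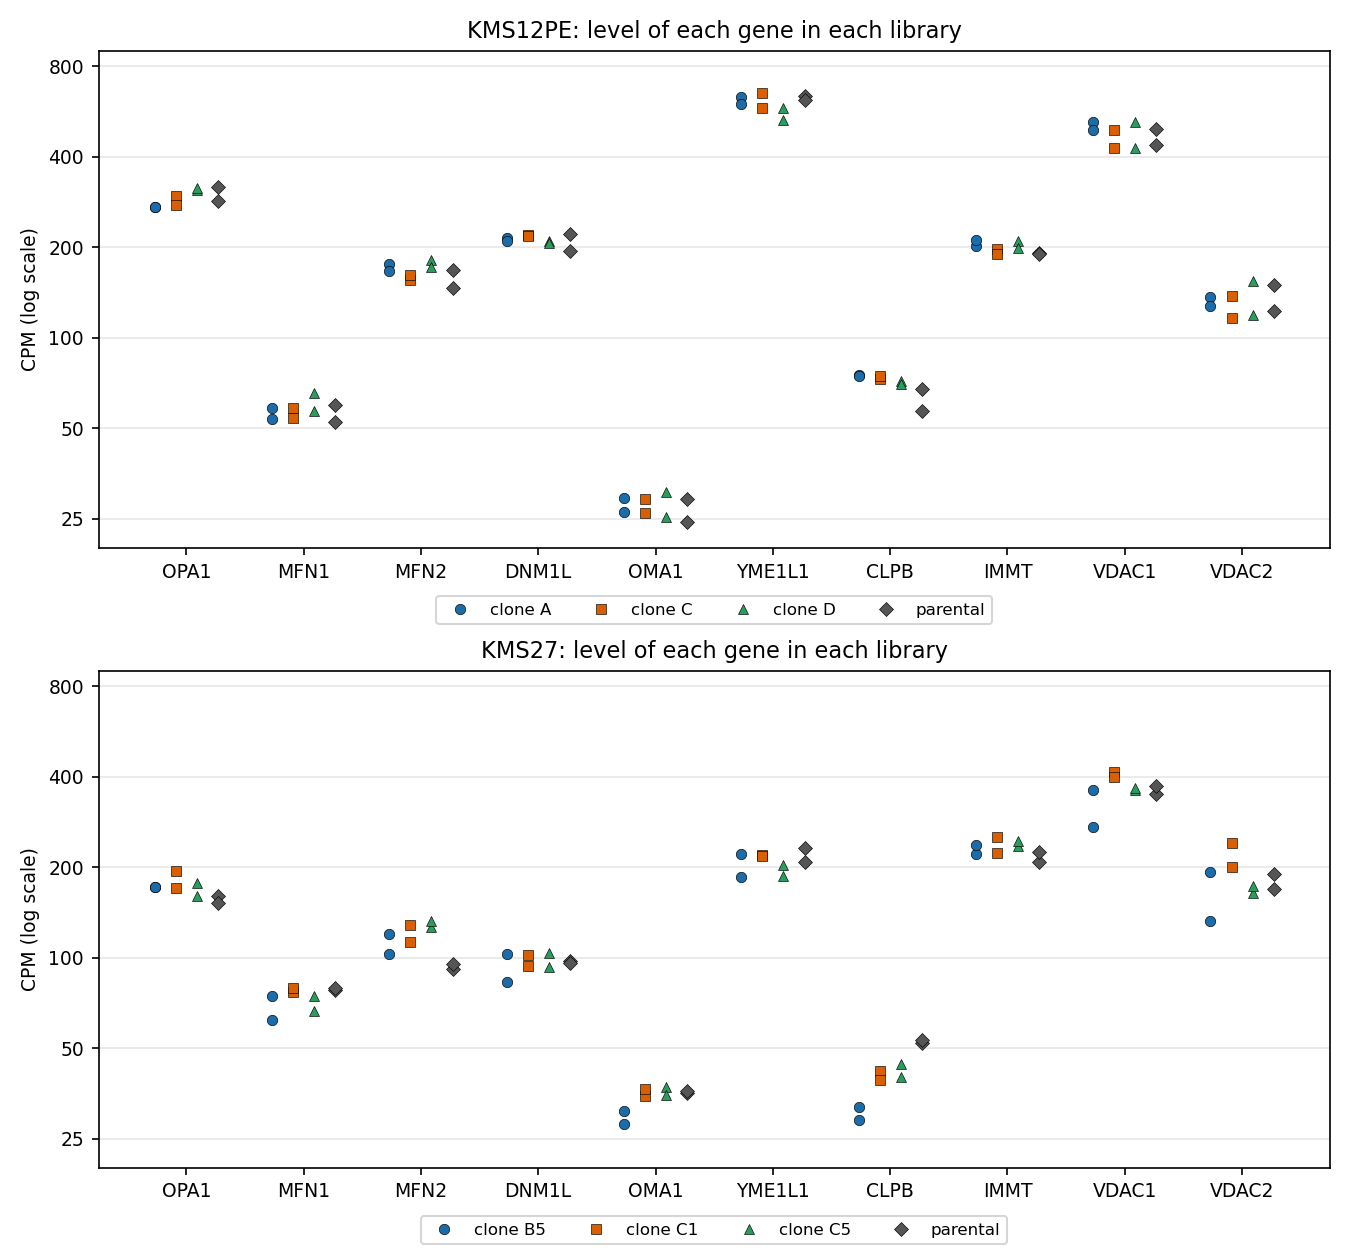
Level of each of the 10 genes in each library, as CPM on a log scale, with KMS12PE above and KMS27 below; every point is 1 library and each population has 2. In KMS27 the CLPB points of all clones lie below both parental points and the MFN2 points of all clones lie above both, while in KMS12PE the clone and parental points of most genes overlap.

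Parental cells of the lines differed in 8 of the 10 members by edgeR's quasi-likelihood test, 4 higher and 4 lower in KMS12PE than in KMS27. Of all genes 64.0% passed the same threshold of an adjusted p under 0.05, 31.2% higher and 32.7% lower. YME1L1 was highest over KMS27, at a log2 difference of 1.35 (SE 0.12, adjusted p = 3.7e-07), then DNM1L at 0.93, OPA1 at 0.78 and MFN2 at 0.58. MFN1 at -0.66, OMA1 at -0.59, VDAC2 at -0.56 and IMMT at -0.35 were lower in KMS12PE. Without replicate 3 of parental KMS12PE or replicate 2 of parental KMS27, 7 members passed and VDAC2 did not. Line and table cannot be told apart in this comparison. CLPB, at 0.07 (95% interval -0.15 to 0.30), and VDAC1, at 0.20 (-0.11 to 0.51), did not pass.

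In KMS12PE none of the 10 members passed the threshold in any clone. By edgeR's quasi-likelihood test 0 of 10 were called in clone A, 0 of 10 in clone C and 0 of 10 in clone D, against 0.448%, 1.78% and 5.16% of all genes tested. At an unadjusted p under 0.05 there was 1 member in clone A, 1 in clone C and 0 in clone D, and DESeq2 also called 0 in each. The mean of the 3 clones against parental cells gave 0 of 10 (background 1.47%) and the joint test among the 3 clones 0 of 10 (background 8.22%), with 1 and 0 members at an unadjusted p under 0.05 and 0 by DESeq2 in both. The median log2 fold change of the members was 0.046 in clone A, 0.009 in clone C and 0.062 in clone D, against 0.001, -0.002 and 0.008 over all genes. With the replicate number as a block, 448, 869 and 2019 genes were called in clones A, C and D, against 55, 219 and 634 without it, and again 0 of the 10 members. Both libraries lay above both parental ones for 2 members in clone A (CLPB and IMMT), 1 in clone C (CLPB) and 3 in clone D (CLPB, MFN2 and IMMT), against 18.4%, 19.2% and 20.8% of all genes. They lay below for 1 member in clone A (OPA1), 0 in clone C and 1 in clone D (YME1L1), against 18.4%, 18.9% and 22.0% of all genes.

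In KMS27 the members past the threshold in the main fit were CLPB and MFN2, and their counts were not tested against the shares of all genes. In clone B5 1 of 10 was called, CLPB, lower than in parental cells, where 21.0% of all genes were called and 10.2% were lower. Clone C1 also had 1 of 10, again CLPB and lower, against 21.6% of all genes called and 10.1% lower. In clone C5 1 of 10 was called, MFN2, higher than in parental cells, against 19.7% of all genes called and 10.4% higher. The mean of the 3 clones gave 2 of 10, CLPB lower and MFN2 higher (background 25.8%, of which 12.7% lower and 13.0% higher), and the joint test among the 3 clones gave 1 of 10, CLPB (background 13.7%). Single libraries moved the counts over all genes. Called genes in clone B5 were 8.69% without parental replicate 1, where CLPB still passed, and 35.7% without clone B5 replicate 1. In clone C1 they were 6.08% without its own replicate 1 and 36.5% without clone B5 replicate 1, and in clone C5 6.97% without its own replicate 2 and 31.4% without clone B5 replicate 1. The median log2 fold change of the members was -0.13, 0.074 and 0.010 in clones B5, C1 and C5, against 0.002, -0.011 and -0.006 over all genes. The clones of a line share the same parental libraries, so their contrasts are not independent of each other. Both libraries lay above both parental ones for 2 members in clone B5 (OPA1 and MFN2), 4 in clone C1 (these with VDAC1 and VDAC2) and 3 in clone C5 (OPA1, MFN2 and IMMT), against 28.8%, 34.1% and 33.6% of all genes. They lay below for 3 members in clone B5 (CLPB, MFN1 and OMA1), 1 in clone C1 (CLPB) and 3 in clone C5 (CLPB, MFN1 and YME1L1), against 27.6%, 34.0% and 32.2% of all genes.

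**Figure D2:**
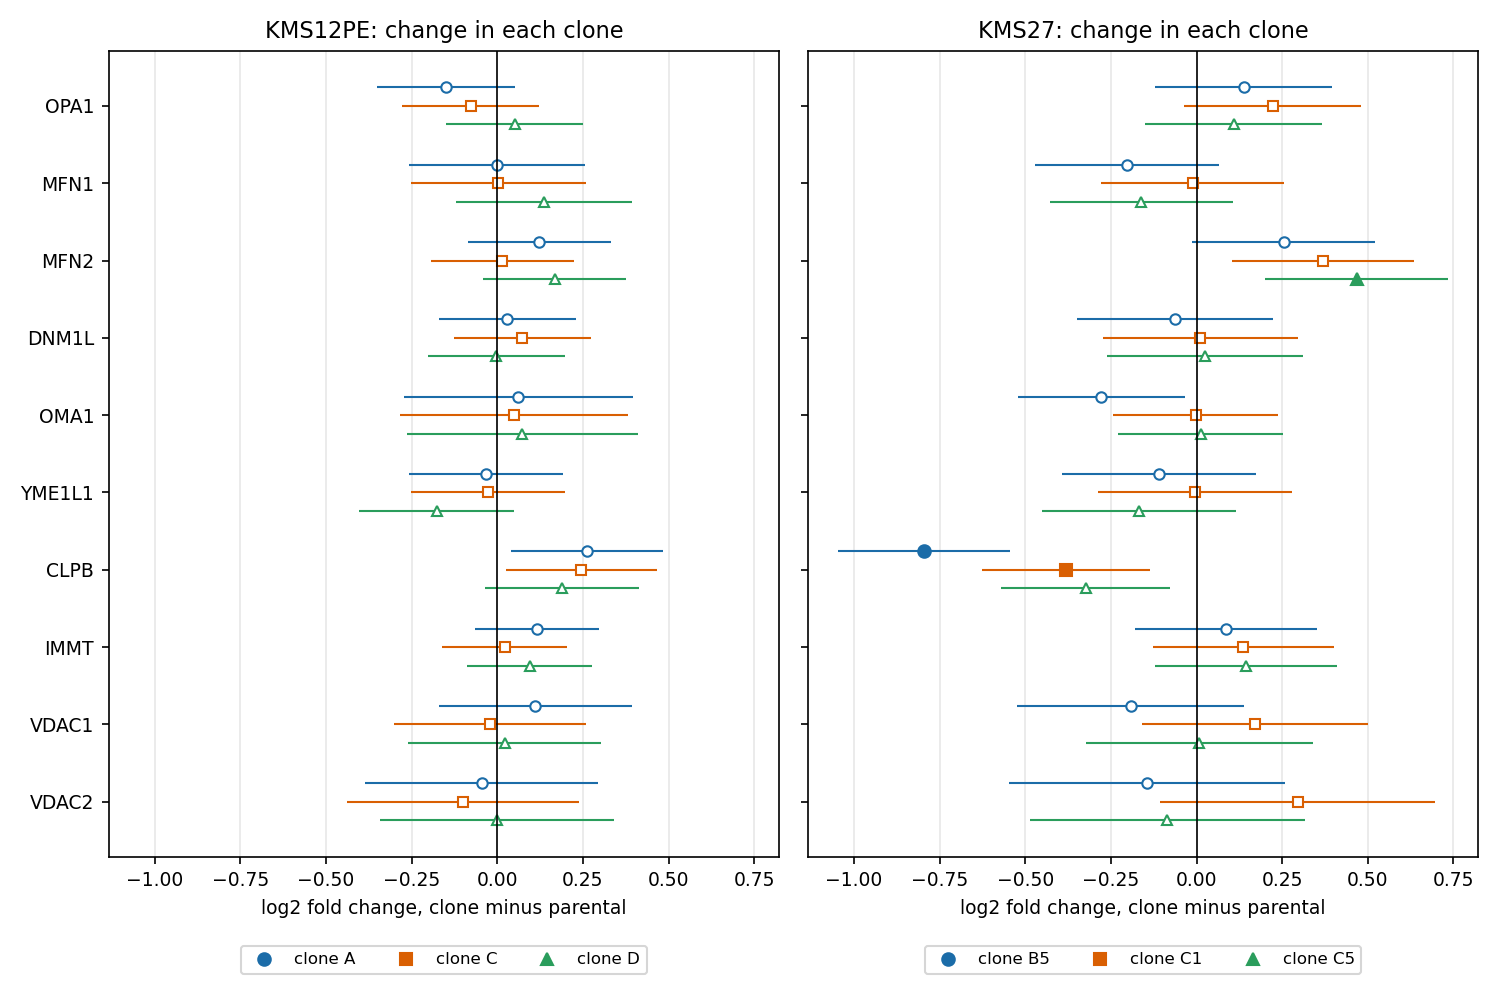
Log2 fold change of each gene in each clone against its parental cells (horizontal axis) with 95% intervals from the edgeR fit, KMS12PE on the left and KMS27 on the right; filled points passed an adjusted p under 0.05 and open points did not. The 3 filled points are CLPB in clone B5 at -0.80, CLPB in clone C1 at -0.38 and MFN2 in clone C5 at 0.47.

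Among the fusion genes, MFN2 stood out in KMS27. Besides fusing outer membranes, it tethers mitochondria to the endoplasmic reticulum. Its level was 103 and 120.1 CPM in clone B5, 129 and 113 CPM in clone C1, 126 and 133 CPM in clone C5, and 91.8 and 95.3 CPM in parental cells. All 6 clone libraries lay above both parental libraries, which held for 16% of all genes. MFN2 rose in clone C5 by a log2 fold change of 0.47 (SE 0.12, 95% interval 0.20 to 0.73, edgeR adjusted p = 0.0237). In clone C1 it was at 0.37 (SE 0.12, edgeR adjusted p = 0.0533) and in clone B5 at 0.25 (SE 0.12, edgeR adjusted p = 0.165), neither past the threshold. Over the 3 clones together the change was 0.36 (SE 0.098, edgeR adjusted p = 0.0256). The call in clone C5 was lost without either clone C5 library or either parental library, at adjusted p of 0.0948 to 0.158. Leaving out clone C1 replicate 1, either clone C5 library or either parental library ended the call over the 3 clones, at adjusted p of 0.0525 to 0.208. With both clone B5 libraries left out, a setting chosen after seeing the data, MFN2 passed at 0.37 (adjusted p = 0.0117) for clone C1 and at 0.47 (adjusted p = 0.00348) for clone C5. In clone B5 it lay at 0.38 (adjusted p = 0.0288) without replicate 1 of that clone and at 0.14 (adjusted p = 0.469) without its replicate 2. In clone C5, where the markers of plasma cells were lowest, 6 of 10 of those markers were called lower, against 9.28% of all genes. CD3E, ITGAM and PECAM1 were called higher there, at no more than 2.97, 1.68 and 9.18 CPM. Each was the only gene listed from the T cell, myeloid or stromal markers, which does not by itself show such cells. The part of these markers in the MFN2 result was not tested.

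In KMS12PE MFN2 had 176 and 167 CPM in clone A, 156 and 162 CPM in clone C, 181 and 172 CPM in clone D, and 168 and 147 CPM in parental cells. Clones A and C overlapped parental cells, and both clone D libraries lay above both parental ones, at a log2 fold change of 0.17 (95% interval -0.043 to 0.38) that did not pass. The response of MFN2 in KMS12PE clones minus that in KMS27 clones was -0.25 (95% interval -0.51 to 0.0072, edgeR adjusted p = 0.193), so the lines were not shown to differ.

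MFN1, which drives outer membrane tethering during fusion, did not pass in any clone. In KMS27 it stood at 74.6 and 61.9 CPM in clone B5, 76.7 and 79.4 CPM in clone C1, 74.3 and 66.4 CPM in clone C5, and 78.2 and 79.1 CPM in parental cells. Clones B5 and C5 lay below parental cells in every library, at log2 fold changes of -0.20 (95% interval -0.47 to 0.065) and -0.16 (-0.43 to 0.11), and clone C1 overlapped them. In clone B5 it lay at -0.33 (edgeR adjusted p = 0.0494) without replicate 1 of that clone and at -0.076 (edgeR adjusted p = 0.707) without its replicate 2. Its KMS12PE libraries ran from 52.5 to 65.6 CPM, and every clone overlapped parental cells. The ratio of MFN2 to MFN1, each as CPM per kb within 1 library, was 1.59 and 2.23 in clone B5, 1.93 and 1.64 in clone C1, 1.95 and 2.30 in clone C5, and 1.35 and 1.39 in parental KMS27 cells. All 6 clone libraries were above both parental ones, and the ratio was given no test because it was built after the single genes had been seen. KMS12PE clones spanned 3.01 to 3.65, inside the 2.84 and 3.67 of their parental cells.

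**Figure D3:**
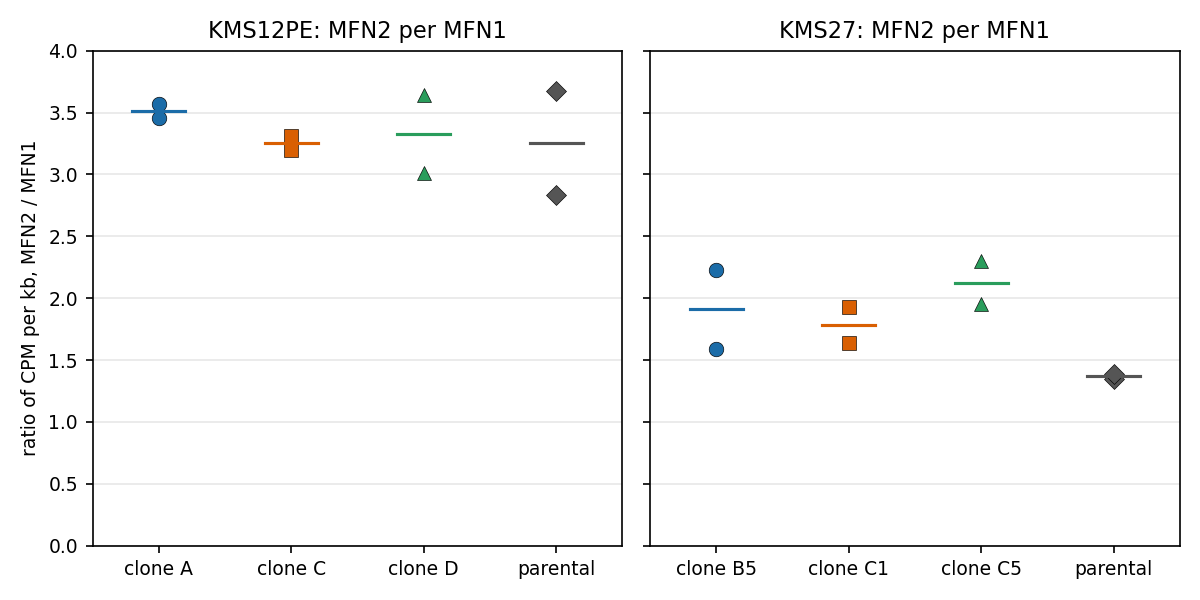
Ratio of MFN2 to MFN1 in each library, both as CPM per kb of transcript, for KMS12PE on the left and KMS27 on the right; points are libraries and lines are the mean of the 2 libraries. The KMS27 clones lie at 1.59 to 2.30, above the parental 1.35 and 1.39, and the KMS12PE clones lie at 3.01 to 3.65, between the parental 2.84 and 3.67.

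OPA1 did not pass in any clone of either line. In KMS27 it had 171 and 172 CPM in clone B5, 194 and 170.2 CPM in clone C1, 177 and 159.7 CPM in clone C5, and 159.7 and 152 CPM in parental cells. All 6 clone libraries were above both parental ones, replicate 2 of clone C5 only just, which held for 16% of all genes, as for MFN2. The log2 fold changes were 0.14 (95% interval -0.12 to 0.40), 0.22 (-0.035 to 0.48) and 0.11 (-0.15 to 0.37) in clones B5, C1 and C5. KMS12PE gave 272 and 272 CPM in clone A, 296 and 276 CPM in clone C, 310.2 and 315 CPM in clone D, and 318 and 286 CPM in parental cells. Clone A lay below both parental libraries, at a log2 fold change of -0.15 (95% interval -0.35 to 0.052), and clones C and D overlapped them. The difference of the responses, KMS12PE minus KMS27, was -0.21 (95% interval -0.46 to 0.046, edgeR adjusted p = 0.275).

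The fission gene DNM1L did not pass in any clone. It ran from 194 to 222 CPM over the 8 KMS12PE libraries and from 82.7 to 104 CPM over the 8 KMS27 libraries, and every clone overlapped its parental cells. Its 95% intervals stayed within -0.35 to 0.31 on the log2 scale in all 6 clones.

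The proteases that cut OPA1 did not pass either. OMA1, which is switched on by loss of membrane potential, had 30.8 and 28.0 CPM in clone B5, 34.8 and 36.6 CPM in clone C1, 37.2 and 34.8 CPM in clone C5, and 35.5 and 35.9 CPM in parental KMS27 cells. Clone B5 was the one population below both parental libraries, at a log2 fold change of -0.28 (95% interval -0.52 to -0.035, edgeR adjusted p = 0.102), and clones C1 and C5 overlapped them. The KMS12PE libraries ran from 24.4 to 30.6 CPM, each clone overlapping parental cells. YME1L1, which cuts OPA1 in resting mitochondria, ran from 186 to 231 CPM in KMS27 and from 529 to 653 CPM in KMS12PE. Clone D at -0.18 (95% interval -0.40 to 0.048) and clone C5 at -0.17 (-0.45 to 0.12) lay below both libraries of their parental cells, and the other clones overlapped theirs.

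CLPB, a disaggregase of the intermembrane space that binds OPA1 and is known to keep cristae tight in acute myeloid leukaemia cells, showed the largest change among the 10 members. In KMS27 it had 31.9 and 28.8 CPM in clone B5, 41.8 and 39.0 CPM in clone C1, 40.03 and 44.2 CPM in clone C5, and 52.2 and 53.2 CPM in parental cells. All 6 clone libraries lay below both parental libraries, which held for 14.0% of all genes, and clone B5 lay below the other clones. CLPB fell in clone B5 by 0.80 on the log2 scale (SE 0.11, 95% interval -1.05 to -0.55, edgeR adjusted p = 0.00146), to a fold of 0.576. In that clone 2 of 10 plasma cell markers, CD38 and MZB1, were called lower, against 10.2% of all genes. ITGAM and PECAM1 were called higher there at no more than 0.666 and 4.04 CPM. In clone C1 MZB1 was called lower, SDC1 higher and ITGAM higher at no more than 0.423 CPM. The part of these markers in the CLPB result was not tested. In clone C1 the log2 fold change was -0.38 (SE 0.11, edgeR adjusted p = 0.0360) and in clone C5 it was -0.32 (SE 0.11, edgeR adjusted p = 0.0681), which did not pass. Over the 3 clones CLPB fell by 0.50 (SE 0.087, edgeR adjusted p = 0.00344), and the clones differed from each other (edgeR adjusted p = 0.0391). The call in clone B5 held without clone B5 replicate 1 (-0.85, adjusted p = 0.000331) and without replicate 2 (-0.73, adjusted p = 0.00156), the libraries that stood apart. In clone C1 the call was lost without either clone C1, either clone C5 or either parental library, at adjusted p of 0.0627 to 0.171, and the same 6 libraries each ended the call among the clones. With both clone B5 libraries left out, CLPB passed at -0.38 (adjusted p = 0.0100) for clone C1 and at -0.33 (adjusted p = 0.0260) for clone C5.

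In KMS12PE the CLPB level was 74.9 and 74.4 CPM in clone A, 73.1 and 74.5 CPM in clone C, 71.6 and 70.4 CPM in clone D, and 67.5 and 57.2 CPM in parental cells. All 6 clone libraries lay above both parental libraries, which held for 4.53% of all genes, while no member lay below in all 6, which held for 4.63%. The parental libraries differed from each other by more than the clones did. The log2 fold changes were 0.26 (edgeR adjusted p = 0.546), 0.25 (0.405) and 0.19 (0.377) in clones A, C and D, none past the threshold. With the replicate number as a block the edgeR adjusted p was 0.0958, 0.0844 and 0.148. The difference of the responses, KMS12PE clones minus KMS27 clones, was 0.74 (SE 0.12, 95% interval 0.48 to 1.00, edgeR adjusted p = 0.00111), and CLPB was the 1 of 10 members called in that test, where 14.2% of all genes were, 6.45% in the same direction. By the 6 clone contrasts the genes nearest to CLPB among 11353 were SNX25 on chromosome 4 and TSSC4 and CRY2 on chromosome 11, at root mean square differences of 0.082, 0.084 and 0.097 on the log2 scale.

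Genes around CLPB on chromosome 11 were lower as well in the KMS27 clones. The 40 nearest tested genes, 20 on each side over 5.74 Mb, had median log2 fold changes of -0.32, -0.25 and -0.21 in clones B5, C1 and C5, with 31, 32 and 29 of 40 below 0. Of them 11, 9 and 5 were called lower and 2 in each clone higher. Over the 661 other tested genes of chromosome 11 the medians were -0.59, -0.36 and -0.38, beside -0.80, -0.38 and -0.32 for CLPB itself. In KMS12PE the neighbours of CLPB had medians of 0.015, 0.023 and 0.067 in clones A, C and D. Around MFN2 on chromosome 1, the 40 neighbours in KMS27 had medians of 0.12, 0.14 and 0.28 in clones B5, C1 and C5, with 3, 7 and 7 called higher and 0 lower. Over the 1237 other tested genes of chromosome 1 the medians were 0.0855, 0.0738 and 0.137. The part of neighbours and chromosomes in the CLPB and MFN2 results was not tested. The neighbours of the other 8 members had medians between -0.23 and 0.11 in the KMS27 clones.

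**Figure D4:**
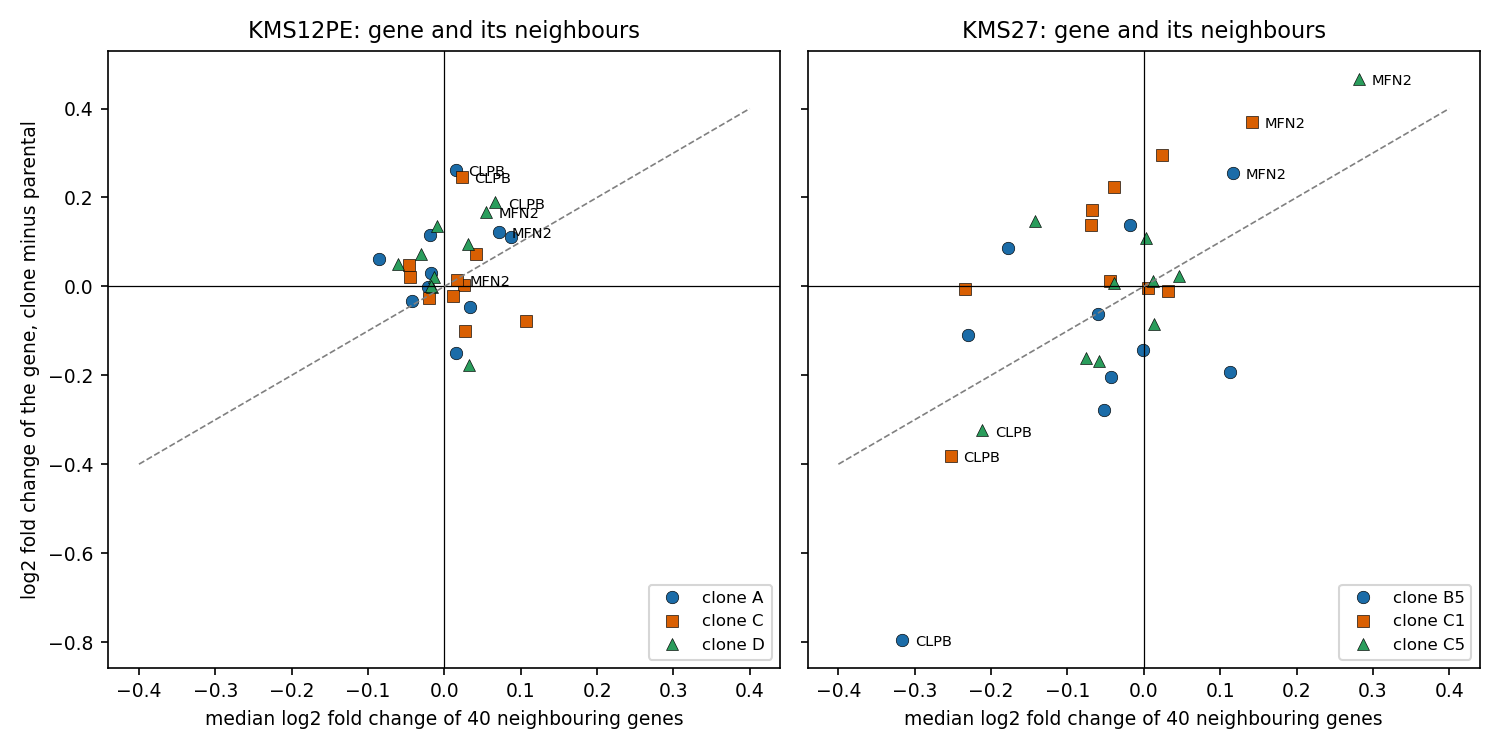
Log2 fold change of each of the 10 genes in each clone (vertical axis) against the median log2 fold change of its 40 nearest tested neighbours on the chromosome (horizontal axis), KMS12PE on the left and KMS27 on the right; the dashed line marks equal values and CLPB and MFN2 are named. In KMS27 the CLPB points lie at the lower left, with neighbour medians of -0.32 to -0.21, and the MFN2 points at the upper right, with neighbour medians of 0.12 to 0.28.

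IMMT, the core subunit of the MICOS complex that builds cristae necks, did not pass in any clone. In KMS27 it had 221 and 238 CPM in clone B5, 252 and 222 CPM in clone C1, 234 and 243 CPM in clone C5, and 208 and 224 CPM in parental cells, with clone C5 alone above both parental libraries at a log2 fold change of 0.15 (95% interval -0.12 to 0.41). In KMS12PE it ran from 190 to 212 CPM, clones A and D above parental cells at 0.12 (95% interval -0.065 to 0.30) and 0.094 (-0.088 to 0.28) and clone C overlapping them.

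The outer membrane channels VDAC1 and VDAC2 did not pass in any clone. VDAC1, the main route for metabolites and a docking site of hexokinase, had 273 and 359.8 CPM in clone B5, 415 and 399 CPM in clone C1, 361 and 366 CPM in clone C5, and 349.5 and 373 CPM in parental KMS27 cells. Clone C1 lay above parental cells at a log2 fold change of 0.17 (95% interval -0.16 to 0.50), and the others overlapped them. VDAC2, which brings BAK to the outer membrane, had 132 and 193 CPM in clone B5, 239.6 and 200.3 CPM in clone C1, 164 and 174 CPM in clone C5, and 169 and 189 CPM in parental KMS27 cells. Clone C1 again lay above at 0.30 (95% interval -0.11 to 0.70), while clones B5 and C5 overlapped parental cells, and the 2 clone B5 libraries lay far apart for both channels. Without clone B5 replicate 2 both channels passed as lower in clone B5, VDAC1 at -0.41 and VDAC2 at -0.44 (edgeR adjusted p = 0.0390 and 0.0416). Without clone B5 replicate 1 they lay at 0.013 and 0.12 there, and VDAC2 passed in clone C1 (0.31, edgeR adjusted p = 0.0472). VDAC1 and VDAC2 have processed pseudogenes, and how reads shared with them were counted is not given in the sources used here. In KMS12PE VDAC1 ran from 428 to 521 CPM and VDAC2 from 116 to 155 CPM, every clone overlapping parental cells.

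Genes that work with the 10 members were read from 7 further lists. In KMS12PE, of 78 such genes tested, 0 passed in clone A, 0 in clone C and 0 in clone D by edgeR, with 2, 3 and 8 at an unadjusted p under 0.05. In KMS27, of 77 tested, 4 were called higher and 5 lower in clone B5, 12 higher and 2 lower in clone C1, and 4 higher and 5 lower in clone C5. That is 11.7%, 18.2% and 11.7% of the list genes in clones B5, C1 and C5, against 21.0%, 21.6% and 19.7% of all genes tested. By direction, 10.8%, 11.5% and 10.4% of all genes were higher and 10.2%, 10.1% and 9.28% lower in the same order of clones. Of the 24 calls named from these lists, 5 held whichever of the 8 libraries was left out: GDAP1 in all 3 clones, APOO in clone C1 and LONP1 in clone B5. The other 19 were each lost without at least 1 library. Single genes from the marker lists of other cell types moved in the same clones, as given for CLPB and MFN2. Their part in the list genes was not tested.

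The MICOS partners of IMMT had 10 members, and in KMS27 1, 3 and 2 were called higher in clones B5, C1 and C5 and 0 lower, against 10.8%, 11.5% and 10.4% of all genes higher, with list medians of 0.065, 0.22 and 0.093 against 0.002, -0.011 and -0.006 over all genes. APOO, a MICOS subunit that binds lipid, averaged 24.3 ± 4.75 CPM in clone B5, 31.6 ± 1.46 CPM in clone C1, 27.8 ± 1.12 CPM in clone C5 and 16.5 ± 1.43 CPM in parental cells (SD, n = 2 each). It rose in all 3 clones, at log2 fold changes of 0.56, 0.94 and 0.76 (edgeR adjusted p = 0.0299, 0.00340 and 0.00860). In clone B5 the change was 0.35 (edgeR adjusted p = 0.112) without replicate 2 of that clone, and the call was lost there without any of 7 of the 8 libraries and in clone C5 without any of 3. Its relative APOOL rose in clones C1 (0.64) and C5 (0.41), and CHCHD6, another subunit, rose in clone C1 (0.82). APOOL in clone C5 lay at 0.28 to 0.53 with 1 library left out, and its call and that of CHCHD6 were each lost without any of 6 libraries, the APOOL call in clone C1 without any of 2. APOO and APOOL lie on chromosome X, whose tested genes had medians of 0.53 to 0.58 in the 3 clones, and the part of the chromosome in these results was not tested.

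Among 11 fission adaptors and regulators tested in KMS27, 1, 3 and 1 were called higher in clones B5, C1 and C5 and 0 lower, against 10.8%, 11.5% and 10.4% of all genes higher, with list medians of -0.004, 0.27 and 0.018. GDAP1, an outer membrane protein that promotes fission, averaged 58.1 ± 4.99 CPM in clone B5, 32.8 ± 2.21 CPM in clone C1, 46.1 ± 3.93 CPM in clone C5 and 19.2 ± 0.188 CPM in parental cells (SD, n = 2 each). GDAP1 rose by 1.60, 0.77 and 1.27 on the log2 scale in clones B5, C1 and C5 (edgeR adjusted p = 6.2e-05, 0.00288 and 0.000184), where the medians of its chromosome were 0.41, 0.19 and 0.15. SPIRE1, an actin nucleator at fission sites, and MIEF2, a receptor of DNM1L, rose in clone C1 at 0.77 and 0.70, calls lost without any of 2 and any of 6 libraries.

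Of 14 inner membrane proteases and prohibitins, 0 were called higher and 1 lower in each KMS27 clone, against 10.2%, 10.1% and 9.28% of all genes lower in clones B5, C1 and C5, with list medians of 0.14, 0.19 and 0.009 in clones B5, C1 and C5. LONP1, the main protease of the matrix, fell in clones B5 and C5 by 0.70 and 0.52 on the log2 scale. The other tested genes of its chromosome 19 had medians of -0.19 and -0.22 there. In clone C1 LONP1 lay at -0.20, not past the threshold, beside a chromosome median of 0.049. IMMP1L, a subunit of the inner membrane peptidase, fell in clone C1 by 1.09 at 4.04 ± 1.02 CPM against 8.50 ± 0.118 CPM in parental cells (SD, n = 2 each). LONP1 in clone C5 was lost without any of 4 libraries, and IMMP1L without any of 2, at -1.35 to -0.83. Genes of chromosome 11, where IMMP1L lies, had a median of -0.36 in clone C1. The part of the chromosomes in the LONP1 and IMMP1L results was not tested. Of 8 genes on the path from OMA1 to the integrated stress response, 1 was lower in clone B5, against 10.2% of all genes, and 0 passed in clones C1 and C5, against 21.6% and 19.7% called. That gene was DDIT3, the stress factor CHOP, at -0.96 (edgeR adjusted p = 0.0208), lost without either parental library.

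Among 12 genes of cytochrome c release and carriers, 2 were called higher and 2 lower in clone B5, 5 higher and 0 lower in clone C1, and 1 higher and 3 lower in clone C5, where 21.0%, 21.6% and 19.7% of all genes were called in clones B5, C1 and C5. The list medians were 0.13, 0.41 and 0.17. VDAC3, the third channel of the family, rose in clone B5 at 1.00, beside a median of 0.41 for the genes of its chromosome 8. Without clone B5 replicate 2 it lay at 0.65 and without replicate 1 at 1.30, and without parental replicate 1 the call was lost (edgeR adjusted p = 0.0695). The adenine nucleotide carriers SLC25A5 and SLC25A6 rose in clone C1 at 0.82 and 1.00. HK2, the hexokinase that docks on VDAC1, fell in clones B5 and C5 by 0.70 and 0.50. The HK2 call in clone B5 was lost without 1 library (parental replicate 1) and in clone C5 without any of 4, the SLC25A5 call without any of 4 and the SLC25A6 call without any of 2. SLC25A5 and SLC25A6 lie on chromosome X like APOO, and SLC25A5 also has processed pseudogenes. Of 7 genes of cardiolipin synthesis, 0 passed in clone B5 and 1 was lower in clones C1 and C5, TAMM41, an enzyme early in cardiolipin synthesis, at -0.62 and -0.71. Of all genes, 10.1% and 9.28% were lower in clones C1 and C5. Both TAMM41 calls were lost without any of 6 libraries, and the one in clone C1 (edgeR adjusted p = 0.0498) also with DESeq2, with median-ratio factors and with no filter. Of 15 genes that follow mitochondrial content, POLG, the mitochondrial DNA polymerase, was lower in clone B5 at -0.69, CS, citrate synthase, was higher in clone C1 at 0.56, and 0 passed in clone C5. Of all genes, 10.2% were lower in clone B5, 11.5% were higher in clone C1 and 19.7% were called in clone C5. POLG was lost without parental replicate 1 and CS without any of 6 libraries.

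**Figure D5:**
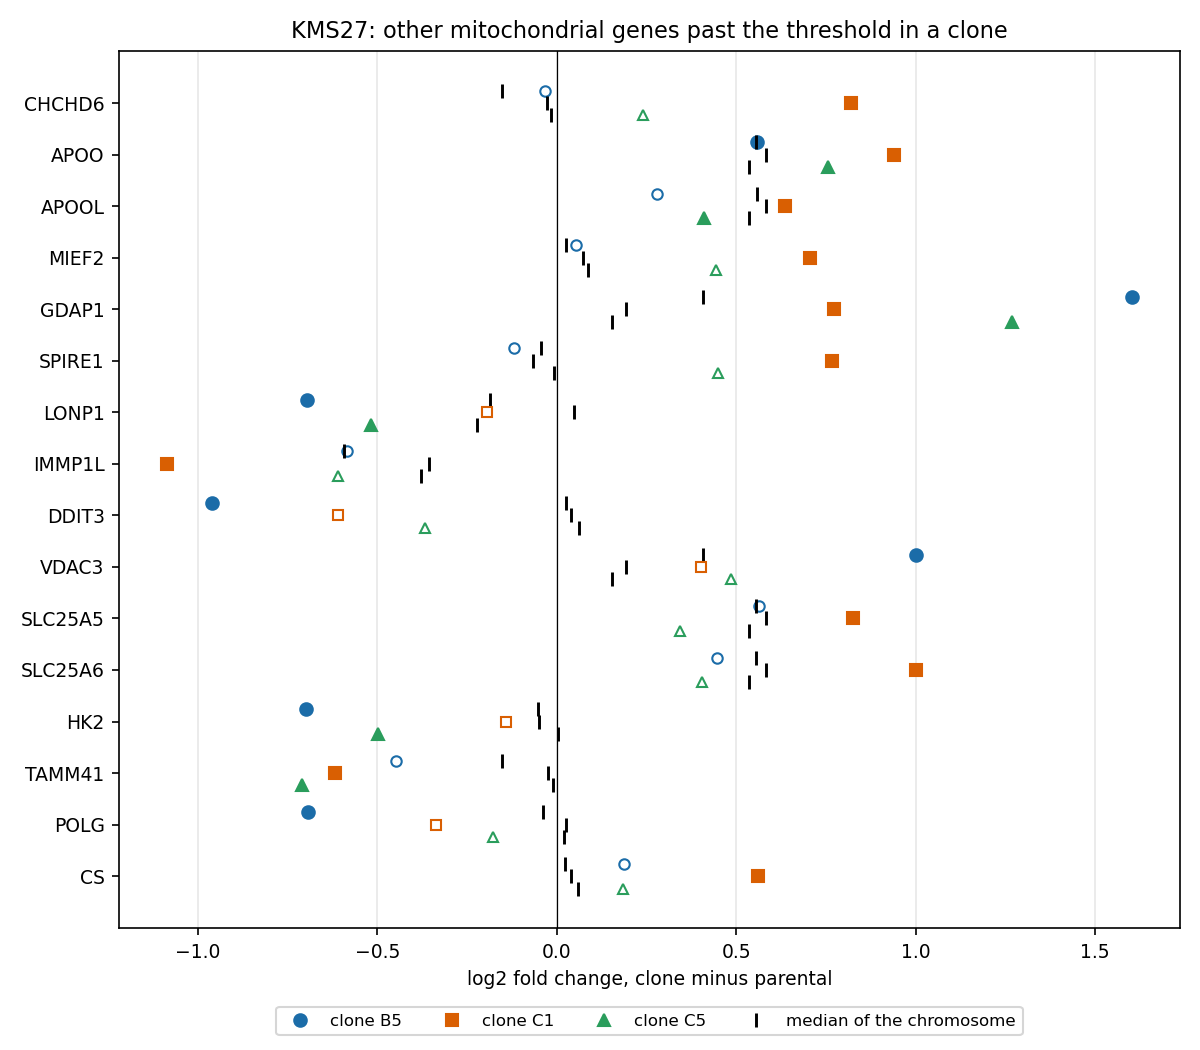
Log2 fold change against parental KMS27 cells (horizontal axis) of 16 genes from the 7 further lists, up to 4 a list, that passed in at least 1 clone; filled points passed an adjusted p under 0.05, open points did not, and black ticks mark the median of the other tested genes of the same chromosome in that clone. GDAP1 lies at 0.77 to 1.60, beyond its chromosome in all 3 clones, while APOO in clone B5 lies at 0.56, beside a chromosome X median of 0.55.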

How the data were processed

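Per the submitters' processing notes, reads were mapped to hg38. Which aligner, counter and gene annotation were used, and whether counting kept strand, is not given in the sources used here. Raw counts were deposited by the authors as 1 table per line, with gene symbols. No gene in a table had fewer than 4 libraries (of 8) with 5 or more counts, so genes silent in most libraries are missing.

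Each line was fitted alone with edgeR 4.0.16 in R 4.3.3: filterByExpr (12279 genes kept in KMS12PE, 14088 in KMS27), TMM scaling, estimateDisp, glmQLFit with 1 mean per population and glmQLFTest, 2-sided, with Benjamini-Hochberg adjustment over all genes tested and a threshold of 0.05. Line differences came from a joint fit of 16 libraries over 11623 shared genes. CPM values were computed from the deposited counts with the TMM library sizes. The script was tested on simulated data. Loci, lengths and neighbours came from GENCODE v29, to which 11229 and 12234 tested symbols matched.

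In KMS12PE same-numbered libraries deviated together across populations, with correlations of 0.254 to 0.537 in all 6 pairs of populations. The labels state no pairing, and the main fit had no block for the replicate number. The members, lists and tests were chosen with earlier results of these data known. CPM per kb divides CPM by the longest principal transcript of a gene. YME1L1 had no entry among the RefSeq promoters. The text names all 10 members, up to 4 called genes per list and line, and the 3 genes nearest to CLPB in pattern. Alternatives were DESeq2 1.42.0, median-ratio factors, other filters, the replicate block, fits of 1 clone with its parental cells, leaving out each library, and leaving out both clone B5 libraries, chosen after seeing the data.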

Additional observations from a re-analysis of the deposited data

Results flagged for a closer look

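CLPB responded differently in the lines by a direct test of the difference. Its mean log2 fold change over the 3 clones was 0.23 in KMS12PE and -0.50 in KMS27, and the difference, KMS12PE minus KMS27, was 0.739 (SE 0.12, edgeR adjusted p = 0.00111). In that test 14.2% of all genes were called, 6.45% in the same direction. For CLPB all 6 clone libraries of KMS12PE lay above their parental libraries, as held for 4.53% of all genes. All 6 of KMS27 lay below theirs, as held for 14.0%. The difference passed in 21 of 21 alternatives, at 0.61 to 0.87. Chromosome 11 genes around CLPB had medians of -0.32 to -0.21 in the KMS27 clones and of 0.015 to 0.067 in the KMS12PE clones. Over all other tested genes of chromosome 11 the medians were -0.59, -0.36 and -0.38 in clones B5, C1 and C5. They were 0.019, -0.0052 and -0.0027 in clones A, C and D. The part of the chromosome in the difference was not tested.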

How the results depend on the processing

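In KMS12PE 0 of 10 members were called in every contrast under every alternative run, leave-outs included. In KMS27 the count in clone C1 was 2 with DESeq2, with the replicate block, with only clone C1 and parental libraries in the fit, and with both clone B5 libraries left out, against 1 in the main analysis. In clone C5 it was 2 with the stricter filter, with only clone C5 and parental libraries, and with both clone B5 libraries left out, against 1. In each of these the members were CLPB and MFN2. Leaving out 1 library at a time gave 1 to 3 members in clone B5, 0 to 3 in clone C1, 0 to 2 in clone C5, 1 to 2 for the mean of the 3 clones and 0 to 2 among the clones. It gave 1 in every case for the difference between the lines and 7 to 8 for the parental lines, and 0 to 0 in each KMS12PE contrast. The counts of 0 came from leaving out clone C1, clone C5 or parental libraries, and the counts above the main ones from leaving out 1 clone B5 library. Without its replicate 1 the members called in clone B5 were CLPB, MFN1 and MFN2, and without its replicate 2 CLPB, VDAC1 and VDAC2. CLPB in clone B5 passed in 14 of 14 alternatives at -0.85 to -0.73, in clone C1 in 9 of 15 and in clone C5 in 5 of 15. MFN2 passed in clone C5 in 11 of 15 and in clone C1 in 6 of 15. No value changed sign past the threshold. The causes were not tested.

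In KMS27 the deviations of same-numbered libraries correlated at 0.444 for clone B5 with parental cells and at 0.0597 to 0.139 in the other pairs. Of the 6 pairs 3 lay under 0.1, so the numbers were not taken as pairs. With the replicate block the members called there were 1 in clone B5, 2 in clone C1, 1 in clone C5 and 2 for the mean of the clones. Over all genes the block gave 798 calls against 181 for the KMS12PE mean, 3208 against 1009 among the KMS12PE clones, 2965 against 1933 among the KMS27 clones and 2535 against 1645 for the difference between the lines. With only the clone and its parental libraries, calls over all genes were 334 against 634 in clone D, 1153 against 2959 in clone B5, 4716 against 3049 in clone C1 and 4315 against 2772 in clone C5. Without clone B5 they were 5112 in clone C1 and 4415 in clone C5. DESeq2 gave 97 against 55 in clone A. Leaving out 1 library gave 22 to 71 calls in clone A, 60 to 276 in clone C, 298 to 510 in clone D, 1224 to 5032 in clone B5, 856 to 5143 in clone C1, 982 to 4420 in clone C5 and 978 to 2283 for the difference between the lines. A population of 2 libraries limits precision: the 95% intervals of the members were 0.363 to 0.683 wide on the log2 scale in KMS12PE and 0.481 to 0.805 in KMS27.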
